A study of Mus musculus with 6 samples.

Results

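Collagen chains, the subunits of the collagen family of extracellular matrix proteins, were examined on 6 mouse oligonucleotide arrays. A chain was any gene of the array annotation whose symbol is Col, a number, the letter a and a number, and each was read from its probe set of highest mean. The rule gave 42 chains among the 18193 annotated genes, of which 11 were fibrillar, 8 belonged to basement membranes and 23 to other types. The groups were 3 arrays of Sp3 knockout embryos and 3 of wildtype embryos, both at E12.5, and each array was labelled as total RNA from 1 heart, of which 5 μg was labelled with biotin. Sp3 belongs to the Sp family of zinc finger regulators, which recognise GC boxes in promoters. The allele, the strain and the embryos' sex were not given in the sources used here, and the labels give no treatment.

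A collagen molecule is a triple helix of 3 chains, built from repeats with glycine at regular steps. In the endoplasmic reticulum the chains are hydroxylated on proline and lysine, joined into trimers and folded with the help of chaperones, and after secretion fibrillar molecules are trimmed and crosslinked. Fibrillar types give tissue its tensile strength, type IV forms the sheet-like scaffold of basement membranes, and type VI forms beaded filaments close to cells. In the embryo most of them are made by mesenchyme, endothelium and other stromal cells rather than by parenchymal cells.

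Array medians of intensity spanned 22.46 (wildtype b) to 26.7 (wildtype c). Sp3 had log2 levels of 8.39, 8.34 and 8.61 in knockout arrays, against 9.87, 9.77 and 9.54 in wildtype arrays, so the groups do not overlap. Its log2 difference, knockout minus wildtype, was -1.27 ± 0.12 (SE, limma adjusted p = 0.00254, or 0.0665 without knockout a), and where its probe set lies relative to the deleted part is not known here. The markers did not match the tissue on the labels: 6 measured hepatocyte markers, led by Afp and Alb, had a median at the 99.6th percentile of all genes and 7 erythroid markers, led by Hbb-y and Hbb-bh1, at the 99.4th. Of 11 cardiomyocyte markers, whose brightest were Actc1 and Tnni1, only 4 reached the median level, with a median at the 29.8th percentile. All levels below therefore belong to arrays labelled heart whose brightest markers were those of liver and red cells.

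No collagen chain passed the test between Sp3 knockout and wildtype. With limma's moderated test, adjusted over 45037 probe sets, 0 of 42 chains had an adjusted p under 0.05, where 0.0495% of all genes did, and the smallest adjusted p among the chains was 0.655, that of Col5a2. At an unadjusted p under 0.05 there were 4 chains, Col5a2, Col6a1, Col6a2 and Col23a1, all higher in the knockout, where 8.71% of all genes passed in either direction. Knockout and wildtype arrays did not overlap in 7 chains. Of these, 6 lay higher in the knockout (Col3a1, Col11a2, Col4a6, Col6a1, Col6a2 and Col23a1), where 6.02% of all genes did, and 1 lay lower (Col10a1), where 9.04% of all genes did. In all, 24 chains had a positive log2 difference and 18 a negative one, with a median of 0.13, against -0.02 over all genes. Centring each array on its median, which moves every difference by the same amount, brought the chains' median to 0.05 and left 4 chains apart and higher. The median over all genes moves by that amount too, so the distance between these medians stays. Without centring the chains' median was 0.01 without wildtype b and 0.24 without knockout c, and 21 and 33 chains were then positive. The count of chains apart and higher was 10 without wildtype c, and that of chains apart and lower was 4 without wildtype b, 3 without knockout c and 2 without knockout a or wildtype c.

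How closely a chain could be measured depended on its brightness. The median log2 level of all probe sets was 4.54, and 22 chains lay at or above it and 20 below. The median SE of the log2 difference was 0.22 in the brighter 22 and 0.90 in the dimmer 20, so a dim chain could lie a log2 unit from 0 without passing any test.

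**Figure D1:**
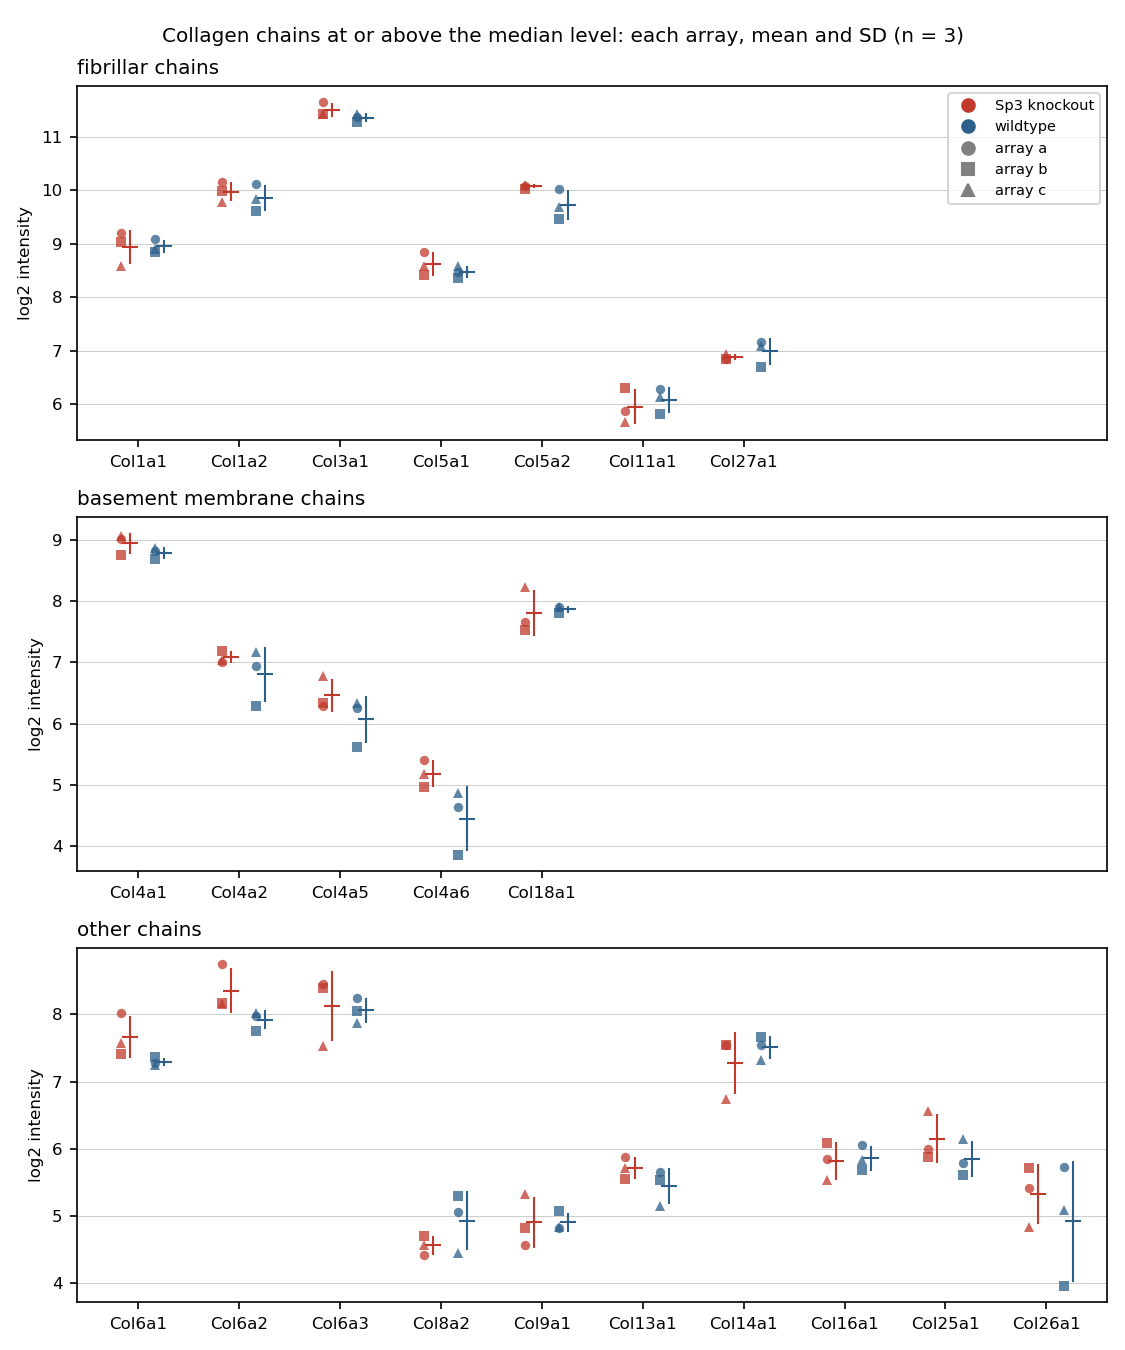
Log2 intensity (y axis) of the 22 collagen chains at or above the median level, by class (x axis, chain). Each symbol is 1 array (circle a, square b, triangle c), Sp3 knockout in red to the left of wildtype in blue, and bars are the mean ± SD of 3 arrays. Col6a2 has all knockout arrays between 8.15 and 8.75, above the wildtype arrays at 7.76 to 8.02, whereas the groups overlap in Col1a1.

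The fibrillar chains of type I, the main collagen of bone, skin and most stroma, had log2 differences close to 0. Col1a1 had log2 levels of 9.21, 9.03 and 8.59 in knockout arrays, against 9.09, 8.85 and 8.91 in wildtype arrays. The groups overlap fully, and knockout c is the lowest of the 6. Its log2 difference was -0.01 (95% interval -0.34 to 0.32), and it was 0.17 without knockout c and 0.06 without wildtype a. For Col1a2, the partner chain, the log2 levels were 10.16, 9.98 and 9.79 in knockout arrays and 10.11, 9.62 and 9.84 in wildtype arrays, a log2 difference of 0.12 (-0.17 to 0.41) with overlapping groups. It was -0.00 without wildtype b, the lowest array.

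Types III and V form mixed fibrils with type I, and no chain of either passed the adjusted test. Col3a1, the chain of type III, had log2 levels of 11.65, 11.43 and 11.43 in knockout arrays, against 11.37, 11.27 and 11.43 in wildtype arrays. The lowest knockout array exceeded the highest wildtype array, wildtype c, by a log2 gap of only 0.000592. The log2 difference of 0.15 (-0.03 to 0.33, adjusted p = 0.734) was 0.08 without knockout a. Its second probe set gave a log2 difference of 0.14 with overlapping groups.

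Col5a2, a chain of type V, had log2 levels of 10.09, 10.03 and 10.10 in knockout arrays, against 10.03, 9.47 and 9.68 in wildtype arrays. The knockout arrays lie close together and wildtype a reaches them. The log2 difference was 0.34 (0.06 to 0.62), with an unadjusted p of 0.0199 and a limma adjusted p of 0.655, and was 0.22 without wildtype b. On the second Col5a2 probe set the log2 levels were 8.33, 8.24 and 8.29 in knockout arrays and 7.90, 7.76 and 7.85 in wildtype arrays. There the groups lie apart by a log2 gap of 0.346, with a log2 difference of 0.45 and a limma adjusted p of 0.499. Col5a1, the partner chain, had log2 levels of 8.85, 8.41 and 8.59 in knockout arrays and 8.48, 8.36 and 8.59 in wildtype arrays, which overlap. Its log2 difference of 0.14 was 0.02 without knockout a.

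The remaining fibrillar chains are best known from cartilage or bone (types II, XI, XXIV and XXVII) or as a minor type V chain (Col5a3). Col5a3, which was dim, had a log2 difference of -0.03 (-1.79 to 1.72). Its second probe set, at a lower level, lay apart with the knockout higher at 2.60 (0.47 to 4.74, limma adjusted p = 0.658). Col11a1 and Col27a1 were bright enough to measure, with log2 differences of -0.12 and -0.11 and overlapping groups. Col11a2 had log2 levels of 3.81, 3.86 and 4.35 in knockout arrays, against 3.68, 2.89 and 2.55 in wildtype arrays. It lay apart with the knockout higher, but at this dim level the log2 difference of 0.97 had an interval of -0.34 to 2.27 (unadjusted p = 0.132). Col24a1, with a log2 difference of -1.23 and an interval of -3.69 to 1.23, was dimmer still. With 16 intensity units added before log2 its difference was -0.23, and that of Col11a2 was 0.39. Cartilage markers, led by Sox9 and Hapln1, were dim too, with 0 of 7 at the median level and summed intensities of 73.8 to 105 in knockout arrays and 60 to 80 in wildtype arrays. The median log2 difference of all 11 fibrillar chains was 0.12, and it was -0.06 without wildtype b, 0.02 without knockout a and 0.04 with median centring.

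Of the 6 type IV chains, which form the network of basement membranes, 4 were higher and 2 lower in the knockout, and none passed the test. Col4a1 and Col4a2 make the type IV molecule that nearly every basement membrane holds. Col4a1 had log2 levels of 9.01, 8.75 and 9.06 in knockout arrays, against 8.81, 8.68 and 8.86 in wildtype arrays, with a log2 difference of 0.15 (-0.11 to 0.42). Knockout b lies among the wildtype arrays, and the log2 difference was 0.25 without it and 0.08 with median centring. For Col4a2 the log2 levels were 7.01, 7.19 and 7.04 in knockout arrays and 6.94, 6.29 and 7.17 in wildtype arrays. Wildtype b stands well below the other 5 arrays, and the log2 difference of 0.28 (-0.19 to 0.76) was 0.03 without it and 0.47 without wildtype c.

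Col4a5 and Col4a6 are X-linked chains whose genes lie head to head, and they share trimers in the basement membranes of smooth muscle and some epithelia. Col4a5 had log2 levels of 6.28, 6.33 and 6.77 in knockout arrays, against 6.25, 5.62 and 6.33 in wildtype arrays, which overlap. Its log2 difference of 0.40 (-0.13 to 0.92) was 0.17 without wildtype b and 0.24 without knockout c. The second Col4a5 probe set read log2 levels of 5.58, 5.31 and 5.74 in knockout arrays and 4.29, 5.25 and 5.11 in wildtype arrays. Those groups lie apart, at a log2 difference of 0.66 (limma adjusted p = 0.709).

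Col4a6 had log2 levels of 5.40, 4.96 and 5.17 in knockout arrays, against 4.64, 3.85 and 4.86 in wildtype arrays. All knockout arrays lie above all wildtype arrays, and wildtype b is again the lowest. The knockout mean of 5.18 was above the dividing level of 4.54 and the wildtype mean of 4.45 below it, so this chain is among the brighter 22 only through the knockout. The log2 difference was 0.72 ± 0.36 (SE, unadjusted p = 0.0645, limma adjusted p = 0.715), and it was 0.42 without wildtype b. Its second probe set, below the median level, gave a log2 difference of -0.02. Each group held 1 array with high Xist, the transcript that coats the inactive X chromosome: Xist had log2 levels of 5.76, 5.21 and 10.55 in knockout arrays and 10.63, 5.80 and 5.35 in wildtype arrays. The Y-linked gene Eif2s3y was lowest in the same 2 arrays, at log2 levels of 8.79, 8.76 and 6.64 in knockout arrays and 1.34, 8.88 and 8.60 in wildtype arrays. Kdm5d and Uty, also Y-linked, were at 5.25 and 5.24 in knockout c and at 2.25 and 3.08 in wildtype a. Knockout c thus had high Xist together with Y-linked signal above that of wildtype a. The part of the embryos' sex in the differences of Col4a5 and Col4a6 was not tested.

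The stretches upstream of both annotated starts are shown because these neighbouring chains lay higher in the knockout and Sp3 binds GC boxes. They are the 250 bases before each start, on the gene's own strand, from RefSeq on GRCm38.p6, with the GC box GGGCGG or its complement CCGCCC in capitals. Col4a5 is read on the plus strand at chrX:141475169-141475418 and Col4a6 on the minus strand at chrX:141474077-141474326, and the annotated starts are 1343 bases apart.
Col4a5: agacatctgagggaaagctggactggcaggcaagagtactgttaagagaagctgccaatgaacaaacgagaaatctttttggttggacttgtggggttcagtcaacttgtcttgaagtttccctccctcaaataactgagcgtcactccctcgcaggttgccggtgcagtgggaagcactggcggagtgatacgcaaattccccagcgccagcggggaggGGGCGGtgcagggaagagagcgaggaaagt
Col4a6: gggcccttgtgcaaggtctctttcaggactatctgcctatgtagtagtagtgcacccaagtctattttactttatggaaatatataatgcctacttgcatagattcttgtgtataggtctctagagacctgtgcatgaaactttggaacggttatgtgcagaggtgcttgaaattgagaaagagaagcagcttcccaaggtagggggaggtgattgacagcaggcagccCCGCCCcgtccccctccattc
Each holds 1 GC box. A match of letters is a description and shows no binding.

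The rest of the basement membrane class gave no direction. Col18a1, whose C-terminal fragment is endostatin, had log2 levels of 7.66, 7.53 and 8.23 in knockout arrays, against 7.90, 7.80 and 7.90 in wildtype arrays. The knockout arrays lie on either side of the wildtype arrays, and the log2 difference was -0.06 (-0.44 to 0.33), with 0.08 without knockout b, 0.01 without knockout a and -0.27 without knockout c. Col15a1, the related type XV chain, had a log2 difference of 0.11 (-1.01 to 1.24), which was -0.08 without knockout c. Col4a3 and Col4a4, which with Col4a5 make the mature network of the glomerulus, were dim. Col4a3 had log2 levels from 0.06 to 3.84 in knockout arrays and from 0.56 to 3.74 in wildtype arrays, and the log2 levels of Col4a4 spanned 0.29 to 3.22 in knockout arrays and 1.26 to 3.03 in wildtype arrays. Their log2 differences, -0.20 and -0.06, had intervals of over 2 log2 units on each side and turned sign when 1 array was left out (0.90 for Col4a3 without knockout a, 0.80 for Col4a4 without knockout c).

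Among the 8 basement membrane chains 5 were higher and 3 lower, with a median log2 difference of 0.13. It was 0.24 without knockout a or knockout b, 0.26 without wildtype a, 0.09 without wildtype b and 0.06 with median centring. Over the 6 type IV chains alone the median was 0.22.

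**Figure D2:**
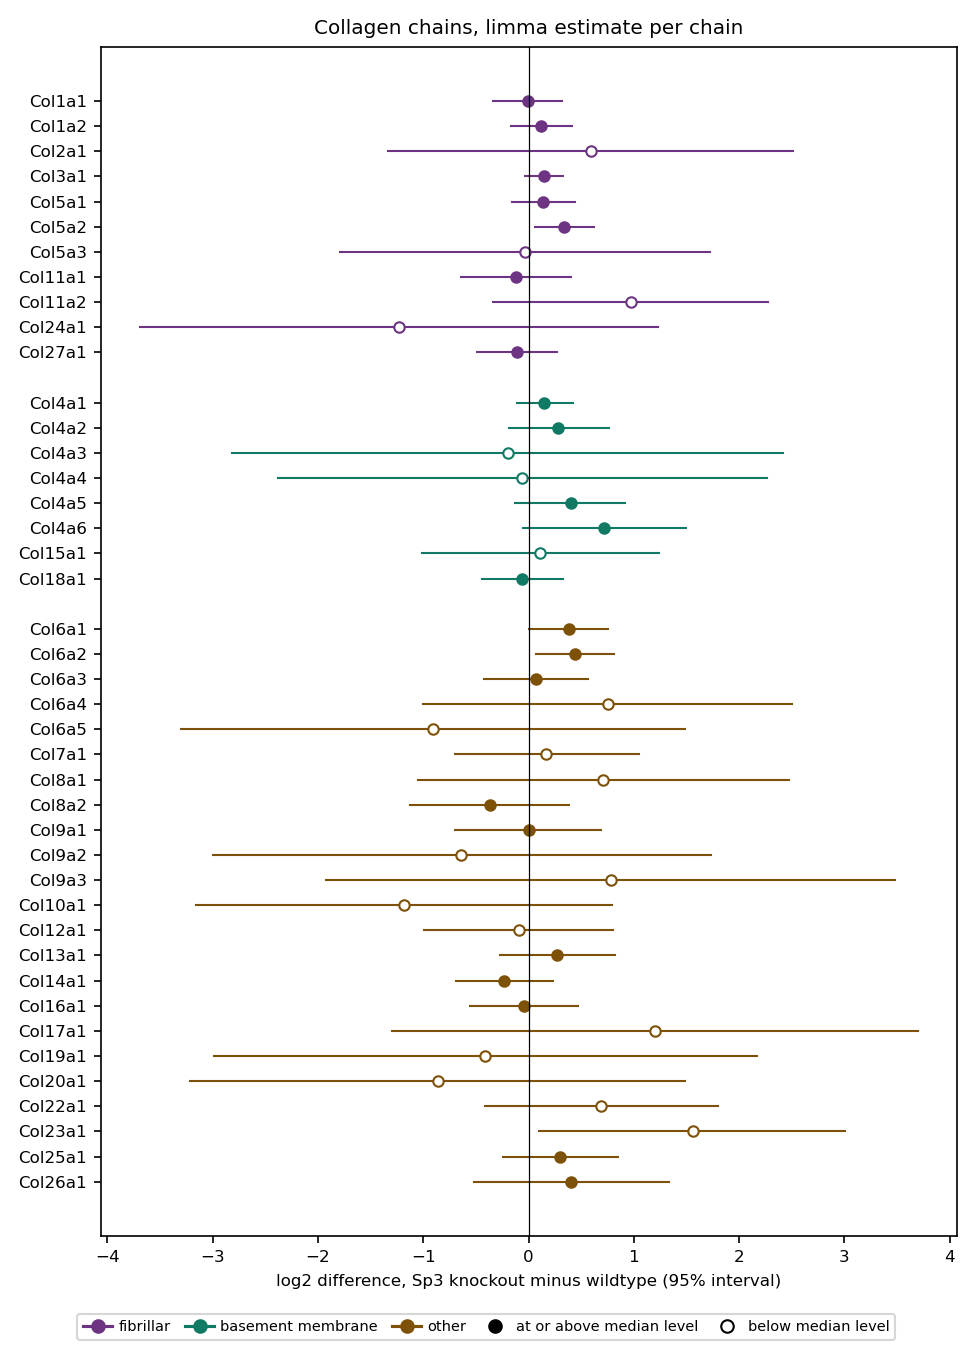
Log2 difference of each of the 42 chains (x axis, Sp3 knockout minus wildtype; limma estimate with its 95% interval, n = 3 arrays each), grouped by class down the y axis. Filled points are chains at or above the median level and open points are dimmer. Intervals of dim chains such as Col24a1, from -3.69 to 1.23, are several times as wide as those of bright ones such as Col3a1, from -0.03 to 0.33.

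Type VI is the beaded filament that links cells to the surrounding matrix. Of its 5 chains 2, both bright, lay apart with the knockout higher, where 6.02% of all genes did. Col6a1 had log2 levels of 8.02, 7.41 and 7.57 in knockout arrays, against 7.27, 7.36 and 7.24 in wildtype arrays. The groups lie apart, with knockout a far above the others and knockout b close to wildtype b. The log2 difference was 0.38 (0.00 to 0.75), with an unadjusted p of 0.0489 and a limma adjusted p of 0.697, and it was 0.20 without knockout a.

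Col6a2, its partner, had log2 levels of 8.75, 8.17 and 8.15 in knockout arrays, against 7.98, 7.76 and 8.02 in wildtype arrays. These groups lie apart too, and knockout a is again the highest. The log2 difference was 0.44 (0.07 to 0.81, unadjusted p = 0.0232, limma adjusted p = 0.661), and it was 0.24 without knockout a. A second Col6a2 probe set had log2 levels of 7.90, 7.48 and 7.44 in knockout arrays and 7.08, 7.26 and 7.24 in wildtype arrays, apart in the same direction at a log2 difference of 0.41.

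Col6a3, the third chain of the same molecule, had log2 levels of 8.45, 8.40 and 7.53 in knockout arrays, against 8.25, 8.05 and 7.88 in wildtype arrays. Here knockout c is the lowest array and the groups overlap. Its log2 difference of 0.07 (-0.42 to 0.56) was 0.37 without knockout c and -0.09 without knockout a, so the direction rests on single arrays. The other type VI chains, Col6a4 and Col6a5, lay below the median level, with log2 differences of 0.75 and -0.91 and overlapping groups. The second Col6a4 probe set, at a lower level, gave -1.12 (-3.03 to 0.80) with the knockout apart and lower.

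Upstream of these chains the GC box content differs. The 250 bases before the start, in the same form as above, are read on the minus strand for Col6a1 at chr10:76726045-76726294 and for the farther upstream of the annotated Col6a2 starts at chr10:76623631-76623880. Col3a1, the bright fibrillar chain that lay apart, is read on the plus strand at chr1:45311288-45311537.
Col6a1: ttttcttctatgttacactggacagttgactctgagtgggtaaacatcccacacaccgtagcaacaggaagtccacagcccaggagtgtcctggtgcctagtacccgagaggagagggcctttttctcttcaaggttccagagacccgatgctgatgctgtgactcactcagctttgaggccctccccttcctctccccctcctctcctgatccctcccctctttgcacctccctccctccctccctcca
Col6a2: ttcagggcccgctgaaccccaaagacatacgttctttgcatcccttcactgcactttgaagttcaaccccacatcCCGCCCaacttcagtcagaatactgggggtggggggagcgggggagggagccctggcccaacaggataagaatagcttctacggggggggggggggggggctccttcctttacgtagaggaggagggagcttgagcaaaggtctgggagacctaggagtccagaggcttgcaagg
Col3a1: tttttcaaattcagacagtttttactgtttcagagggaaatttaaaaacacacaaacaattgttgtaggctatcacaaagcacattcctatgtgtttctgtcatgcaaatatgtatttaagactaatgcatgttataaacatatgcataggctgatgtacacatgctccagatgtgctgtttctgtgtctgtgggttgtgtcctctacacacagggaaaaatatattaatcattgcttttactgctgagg
The Col6a2 window shown holds 1 GC box, and those of Col6a1 and Col3a1 hold 0, with GC contents of 59.2%, 56% and 35.2% in that order. The window of the other Col6a2 start, at chr10:76623405-76623654 and not shown, holds 3 GC boxes at a GC content of 64.4%. That a window holds no match says only that these letters are not in it.

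RefSeq windows were matched by symbol for 33 chains, in 36 windows, and 9 chains had none. The motif GGGCGG was searched on both strands, overlapping matches included, and stood in 21 of 36 windows (58.3%), against 10756 of 32851 windows of all genes (32.7%). The median GC content was 59% in the chains' windows and 52.4% over all windows, and the part of base composition in the share of windows with the motif was not tested. The 20 chains with the motif had a median log2 difference of 0.15, of which 12 were higher in the knockout, and the 13 without it had 0.07, of which 7 were higher. Of the 7 windows of chains that lay apart and higher, 5 held the motif, where 58.3% of all the chains' windows did. Both windows of Col6a2, which overlap in part, are among them.

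Fibril-associated chains with interrupted helices sit on the surface of fibrils, and 2 of 9 were higher in the knockout, with a median log2 difference of -0.09. None of the 9 lay apart. Col14a1, a fibril-associated chain of soft connective tissue, had log2 levels of 7.54, 7.55 and 6.74 in knockout arrays, against 7.55, 7.66 and 7.32 in wildtype arrays. Only knockout c stands below the rest, at a log2 difference of -0.23 (-0.69 to 0.23). Col16a1 and Col9a1, the other bright ones, had log2 differences of -0.04 and -0.00. Col12a1 had one of -0.09. Col22a1, a chain of tissue junctions, had the log2 levels 5.04, 4.27 and 4.36 in knockout arrays and 4.81, 3.07 and 3.71 in wildtype arrays, which overlap. Its log2 difference of 0.69 (-0.41 to 1.80) was 0.30 without wildtype b and 1.17 without wildtype a.

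Transmembrane collagens, which are anchored in the cell membrane, were higher in the knockout in all 4 members, with 1 apart. Over all genes 47.5% were higher and 6.02% lay apart and higher. Col23a1 had log2 levels of 4.41, 3.73 and 4.69 in knockout arrays, against 1.61, 3.19 and 3.36 in wildtype arrays. The groups lie apart by a log2 gap of 0.367, and wildtype a is by far the lowest. Its log2 difference of 1.56 (0.10 to 3.01) had an unadjusted p of 0.0378 and a limma adjusted p of 0.68. Over the alternatives it ran from 0.62, with 16 intensity units added before log2, to 1.88. Its other probe sets gave log2 differences of 1.34 and -0.78 with overlapping groups, so the probe sets of this dim chain do not go one way. Col13a1 and Col25a1 were brighter, at log2 differences of 0.27 and 0.30 with overlapping groups, and Col17a1 was dim at 1.20. The second Col25a1 probe set, below the median level, gave -1.76 with overlapping groups.

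The last chains are short chain network formers, an anchoring fibril and a secreted chain. Col10a1, known from hypertrophic cartilage, had log2 levels of 0.20, 0.44 and 0.21 in knockout arrays, against 1.02, 2.22 and 1.17 in wildtype arrays. It lay apart with the knockout lower, in the dimmest of 10 level classes, where the median residual SD was 1.27 against 0.125 in the brightest, and its log2 difference of -1.18 had an interval of -3.16 to 0.79. With 16 intensity units added before log2 the difference was -0.14. Col8a1 and Col8a2, chains of Descemet's membrane and vessel walls, had log2 differences of 0.71 and -0.37. Col7a1, the anchoring fibril of skin, was at 0.17 and Col26a1 at 0.40, all with overlapping groups. Other Col8a1 probe sets, at lower levels, gave 1.27 with overlapping groups and -2.41 (-4.52 to -0.30) with the knockout apart and lower. Over the 23 chains of this class 13 were higher and 10 lower, with a median log2 difference of 0.17, which was -0.08 without wildtype b, 0.04 without knockout b, 0.27 without wildtype a and 0.36 without knockout c. With median centring it was 0.10.

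Probe sets of the same chain read different parts of its transcript and served as a check within the arrays. Of 27 chains with more than 1 probe set, 12 differed in 1 direction on all of them. Where only probe sets at or above the median level were taken, 11 of 12 chains went 1 way, and the exception was Col11a1, at log2 differences of -0.12 and 0.19. The remaining 15 chains had 1 probe set.

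Chains that assemble into the same molecule were set against each other over the 6 arrays in 11 pairs. Col1a1 and Col1a2 had a Pearson r of 0.77 (exact permutation p = 0.0667, adjusted 0.306) and a Spearman rho of 0.94 (exact permutation p = 0.0167, adjusted 0.183). Without the 2 arrays farthest from the median of Col1a1, knockout a and knockout c, r was 0.97. Col6a1 and Col6a2 had an r of 0.90 (exact permutation p = 0.0361, adjusted 0.306) and a rho of 0.71 (exact permutation p = 0.136, adjusted 0.642). That relation rests on knockout a and knockout c, without which r was 0.11.

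For Col4a5 and Col4a6 r was 0.83 (exact permutation p = 0.0833, adjusted 0.306) and rho 0.66 (exact permutation p = 0.175, adjusted 0.642), and without knockout c and wildtype b r was 0.10. Col4a1 with Col4a2 gave an r of 0.48 (exact permutation p = 0.392, adjusted 0.539) and a rho of 0.26 (exact permutation p = 0.658, adjusted 0.805). Col6a1 with Col6a3, of the same molecule as the type VI pair above, had an r of 0.29 (exact permutation p = 0.568, adjusted 0.625) and a rho of 0.37 (exact permutation p = 0.497, adjusted 0.684). For Col5a1 and Col5a2 r was 0.47 (exact permutation p = 0.361, adjusted 0.539) and -0.40 without knockout a and wildtype b. The other 5 pairs, each with at least 1 dim chain, had negative r, of -0.70 (Col9a1 and Col9a2), -0.49 (Col8a1 and Col8a2), -0.44 (Col9a1 and Col9a3), -0.35 (Col4a3 and Col4a4) and -0.20 (Col11a1 and Col11a2). Without the 2 arrays farthest from the median of the first chain, r was 0.58, 0.82, -0.90, -0.81 and 0.06 in that order. None of the 11 pairs passed after adjustment. The 3 arrays of a group share a genotype, so these values mix differences between and within groups, and a batch of arrays was not given in the sources used here.

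**Figure D3:**
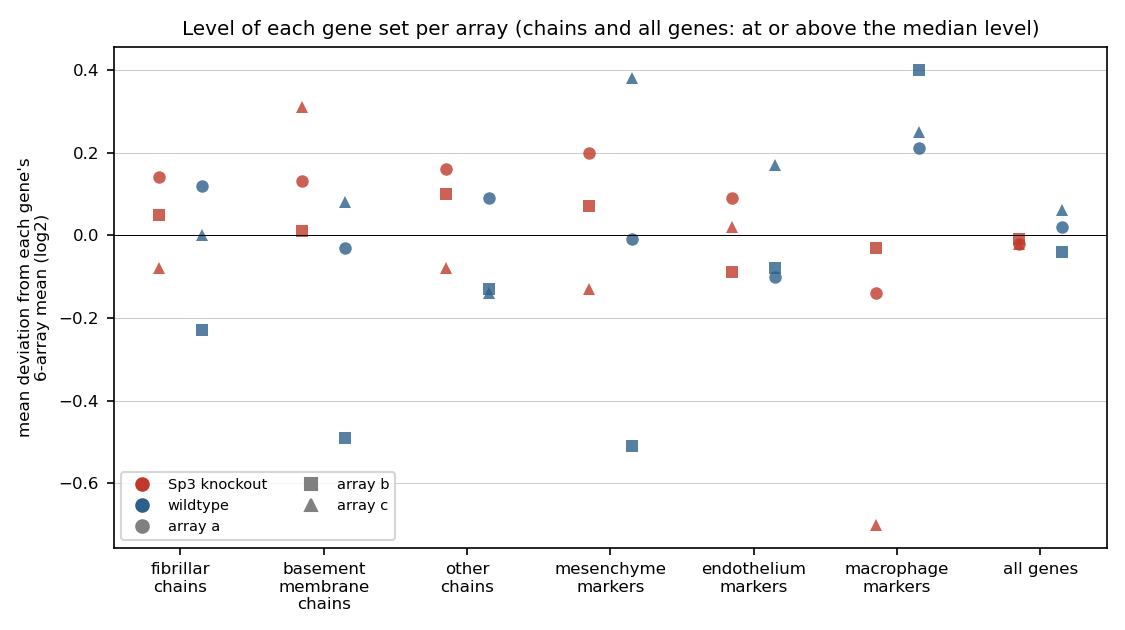
Mean deviation of each gene set from the 6-array mean of its genes (y axis, log2) in each array (circle a, square b, triangle c), Sp3 knockout in red to the left of wildtype in blue; chains and all genes are those at or above the median level. Wildtype b is the lowest array both for basement membrane chains, at -0.49, and for mesenchyme markers, at -0.51.

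The level of a whole class in each array shows where the arrays part. For the 5 bright basement membrane chains the mean log2 deviation from the 6-array mean was 0.13, 0.01 and 0.31 in knockout arrays, against -0.03, -0.49 and 0.08 in wildtype arrays. The 7 bright fibrillar chains stood at 0.14, 0.05 and -0.08 in knockout arrays and 0.12, -0.23 and -0.00 in wildtype arrays. Wildtype b was the lowest array in both of these, and Col4a6 is among the 5 only through its knockout level. Over all 8 basement membrane chains the deviations were -0.06, 0.10 and 0.22 in knockout arrays and 0.19, -0.17 and -0.27 in wildtype arrays, with wildtype c the lowest. In the class of other chains the 10 bright members had deviations of 0.16, 0.10 and -0.08 in knockout arrays, against 0.09, -0.13 and -0.14 in wildtype arrays.

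Markers of mesenchyme, which makes much of the collagen of an embryo, were on average also lowest in wildtype b. Not every member was, as Lum and Dcn were lowest in knockout c, at log2 levels of 8.96 and 6.73. Wildtype b was also the lowest array for cardiomyocyte markers, at a mean log2 deviation of -0.67, and for all genes, at -0.07. For macrophage markers it was the highest, at 0.40. The 9 measured markers of fibroblasts and mesenchyme, led by Lum and Pdgfra, had mean log2 deviations of 0.20, 0.07 and -0.13 in knockout arrays, against -0.01, -0.51 and 0.38 in wildtype arrays, and 6 of the 9 were higher in the knockout. Their summed intensity ranged over 2215 to 2651 in knockout arrays and 1799 to 2483 in wildtype arrays. In hepatic stellate markers, led by Reln and Hand2, of which 5 of 8 were higher, the sums were 2158 to 2650 in knockout arrays and 2178 to 2322 in wildtype arrays. Rgs5, a gene of pericytes, was the 1 member of that list that lay apart, higher in the knockout at a log2 difference of 0.91 (limma adjusted p = 0.437). In bulk tissue fewer cells of a type and less RNA per cell cannot be told apart, and the part of these cells in the collagen levels was not tested.

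Other cell types behaved differently among themselves. Endothelial markers, led by Lyve1 and Stab2, were higher in 5 of 8, with sums of 878 to 952 in knockout arrays and 945 to 996 in wildtype arrays, and those of mesothelium and epicardium, led by Upk3b and Aldh1a2, in 6 of 7, with sums of 496 to 570 in knockout arrays and 407 to 593 in wildtype arrays. Cardiomyocyte markers were higher in 8 of 11, with 3 apart, where 47.5% of all genes were higher and 6.02% apart and higher, and their sums were 931 to 964 in knockout arrays and 359 to 884 in wildtype arrays. All 6 macrophage markers, led by Csf1r and C1qb, were lower in the knockout and 4 lay apart, where 9.04% of all genes lay apart and lower, with sums of 799 to 1185 in knockout arrays and 1515 to 1591 in wildtype arrays. Hepatocyte markers were higher in 1 of 6, with Alb apart and lower, and their sums were 36129 to 36408 in knockout arrays and 36093 to 42034 in wildtype arrays. Erythroid markers were higher in 2 of 7, with 0 apart, and their sums were 34535 to 43093 in knockout arrays and 37334 to 42773 in wildtype arrays. No marker of these lists passed limma's adjusted test, the unadjusted p was under 0.05 in 0 to 4 of each list, and the part of these cell types in the collagen levels was not tested.

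Of the enzymes and chaperones that make collagen, 29 of 33 listed genes were measured, 0 passed the adjusted limma test and 6 had an unadjusted p under 0.05, 4 of them higher, where 8.71% of all genes had one. In the knockout 19 were higher and 10 lower, with a median log2 difference of 0.08, which was 0.01 with median centring or array weights, 0.05 without wildtype b and 0.16 without wildtype a. The lowest unadjusted p belonged to Crtap, a partner of prolyl 3-hydroxylase and cyclophilin B in the modification of fibrillar chains. Crtap had log2 levels of 7.16, 6.97 and 7.25 in knockout arrays, against 8.23, 7.77 and 7.98 in wildtype arrays. The groups lie apart by a log2 gap of 0.516, with every knockout array low. The log2 difference was -0.86 ± 0.16 (SE), with an unadjusted p of 0.00015 and a limma adjusted p of 0.149, over 1 probe set. It lay between -0.98 and -0.75 in all 15 alternatives that gave a value.

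Ppib, cyclophilin B itself, was the other gene of the list that lay apart and lower, as 9.04% of all genes did. Its log2 levels were 11.89, 11.97 and 11.91 in knockout arrays and 12.06, 12.06 and 12.08 in wildtype arrays, at a log2 difference of -0.14. P3h1, the hydroxylase of the same complex, had a log2 difference of -0.22 with overlapping groups. P4hb, a subunit of prolyl 4-hydroxylase, and Serpinh1, the collagen chaperone HSP47, had log2 differences of 0.01 (-0.16 to 0.19) and -0.01 (-0.20 to 0.18).

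The 4 genes that lay apart and higher, as 6.02% of all genes did, were P4ha2, P3h3, P3h4 and Loxl1. Among relatives of these enzymes, P4ha3 and Loxl4, both dim, had log2 differences of -0.36 (-1.37 to 0.64) and -1.17 (-3.48 to 1.13). Loxl3 was at -0.38 (-0.93 to 0.17), and the groups overlap in each of these relatives. P4ha2, a catalytic subunit of prolyl 4-hydroxylase, had log2 levels of 6.70, 6.22 and 6.94 in knockout arrays, against 6.05, 6.13 and 5.99 in wildtype arrays, a log2 difference of 0.56 (0.09 to 1.04, limma adjusted p = 0.661). P4ha1, the other such subunit, had 8.51, 8.09 and 8.86 in knockout arrays and 7.86, 8.13 and 8.11 in wildtype arrays, a log2 difference of 0.45 (limma adjusted p = 0.663). Knockout b is the lowest knockout array in both, and in P4ha1 it lies within the wildtype range. Loxl1, a crosslinking oxidase, had log2 levels of 7.03, 6.74 and 6.87 in knockout arrays and 6.46, 6.44 and 6.35 in wildtype arrays, a log2 difference of 0.46 (limma adjusted p = 0.658). Lox, its relative, and Sparc, a collagen-binding matrix protein, had log2 differences of 0.24 and 0.03 with overlapping groups.

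**Figure D4:**
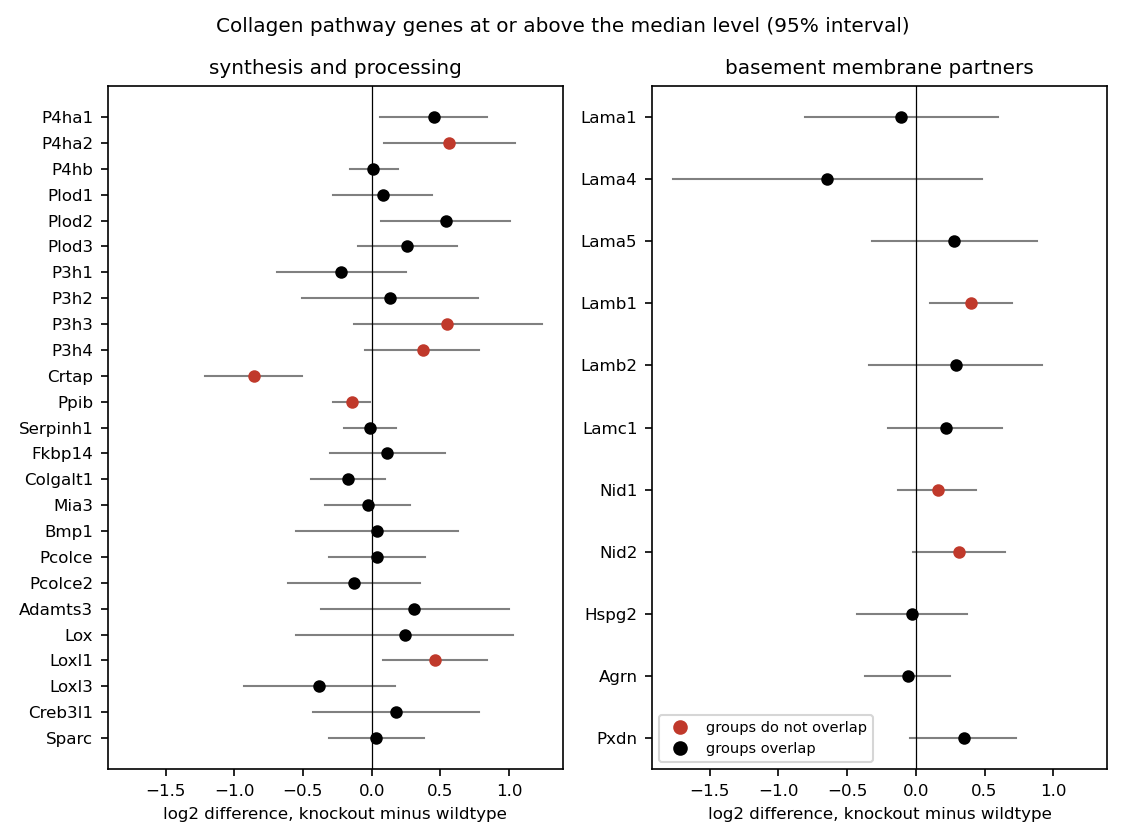
Log2 difference (x axis, Sp3 knockout minus wildtype; limma estimate with its 95% interval, n = 3 arrays each) of genes at or above the median level that make and process collagen (left) or build basement membranes with it (right). Red points are genes whose groups do not overlap. Crtap lies farthest left in the first list, at -0.86, and Lamb1 farthest right in the second, at 0.40.

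Partners of type IV collagen in basement membranes, the laminins, nidogens and perlecan among them, were measured for 15 of 16 listed genes. None passed limma's adjusted test and 1 had an unadjusted p under 0.05, where 8.71% of all genes had one. In the knockout 10 were higher and 5 lower, where 47.5% of all genes were higher. Of the 15, 3 lay apart and higher, where 6.02% of all genes did. The median log2 difference was 0.28, against -0.02 over all genes. It was 0.17 without knockout c or wildtype b, 0.14 with array weights and -0.01 with the probe sets of each gene averaged. Lamb1, the laminin beta-1 chain, had log2 levels of 8.37, 8.16 and 8.59 in knockout arrays, against 7.94, 7.93 and 8.05 in wildtype arrays. The groups lie apart, at a log2 difference of 0.40 (0.10 to 0.70, unadjusted p = 0.0135, limma adjusted p = 0.63), but the mean over the Lamb1 probe sets gave -0.09. Nid2 had log2 levels of 7.12, 7.10 and 7.13 in knockout arrays and 6.88, 6.80 and 6.74 in wildtype arrays, apart at a log2 difference of 0.31. Nid1, the other nidogen, which joins laminin to type IV collagen, lay apart as well, with 8.30, 8.30 and 8.64 in knockout arrays and 8.21, 8.28 and 8.28 in wildtype arrays. Its log2 difference of 0.16 was 0.04 to 0.48 in the alternatives. Lamc1, the laminin gamma-1 chain, and Pxdn, the peroxidase that crosslinks type IV collagen, had log2 differences of 0.22 and 0.35 with overlapping groups. The alternatives gave 0.10 to 1.54 for Lamc1 and 0.18 to 0.49 for Pxdn. Lama3 was dim at 1.57.

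No gene of collagen turnover or recognition had an adjusted or an unadjusted limma p under 0.05. Of 12 turnover genes, collagenases and their inhibitors among them, 6 were higher and 6 lower. Their median log2 difference of -0.04 was 0.05 without knockout c, 0.07 without wildtype c and -0.12 with median centring. Mmp2, a gelatinase of stromal cells, had log2 levels of 7.67, 7.63 and 7.64 in knockout arrays, against 7.62, 6.90 and 7.35 in wildtype arrays, and lay apart and higher at a log2 difference of 0.36 (-0.03 to 0.75), which was 0.17 without wildtype b. Timp2, which inhibits it, was at 0.28 with overlapping groups, and at 0.04 to 0.51 in the alternatives. The collagenases Mmp8 and Mmp13, both dim, were at -0.62 and -1.52.

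Of 9 listed receptors 8 were measured, 5 higher and 3 lower, with a median log2 difference of 0.06, which was -0.04 without knockout b, -0.03 without wildtype b, -0.01 without wildtype c and -0.02 with median centring. Ddr1 and Ddr2, the receptor tyrosine kinases that bind collagen, had log2 differences of 0.75 and 0.15 with overlapping groups. The alternatives gave 0.25 to 1.09 for Ddr1 and 0.00 to 0.28 for Ddr2. Lair1, an inhibitory collagen receptor of leukocytes, had log2 levels of 4.19, 3.78 and 4.04 in knockout arrays and 4.46, 4.64 and 4.79 in wildtype arrays, and lay apart and lower at -0.63, while the mean of its probe sets gave 0.08. The collagen-binding integrin chains Itga2 and Itga10 were at -0.83 and -2.16, with Itga10 at log2 levels from -0.84 to 3.18 in knockout arrays and from 2.39 to 4.60 in wildtype arrays. Both overlap between the groups.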

How the data were processed

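The 6 arrays, 3 Sp3 knockout and 3 wildtype, were grouped by their titles. The deposited table gives each probe set a linear intensity. GCOS and RMA appear in the submitters' processing notes without versions, and their roles are not given in the sources used here. An intensity this processing set near 0 has a large spread after log2. Log2 was taken with no further normalization. The 64 control probe sets were left out, and 45037 were tested, two-sided, in R 4.3.3 with limma 3.58.1 (lmFit, then eBayes with trend and robust estimation, group as the only term), with Benjamini-Hochberg adjusted p under 0.05. No array pair shared more than 1 identical value. The labels speak of single hearts but of no litters, so p-values reflect no variation beyond these 6 samples, and precision is limited by their number. The variance of each probe set was moderated by eBayes toward a trend with intensity over all tested probe sets.

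Of the probe sets 34945 are annotated with 1 gene, 932 with more than 1 and 9160 with none. Of their gene IDs 34741 matched GRCm38.p6, with 0 symbols changed. The files name no build, and coordinates are those of RefSeq windows. A gene was read from its probe set of highest mean, and percentiles of marker levels set different probe sets side by side, so they carry differences between probes. "Apart" means that the groups do not overlap, and "dim" means below the median level. Members, classes, lists, tests and the trend setting were chosen with earlier results of these data known, and the sex check was added later. Named were Sp3, the chains of types I, III, IV, XV and XVIII, and Col5a1, Col5a2, Col6a1, Col6a2 and Col6a3. So were each chain whose groups do not overlap, the 4 of smallest p per class and per pathway list and the 2 brightest markers per list. The 8 further pathway genes named were Serpinh1, P4hb, Lox, Sparc, Lamc1, Nid1, Ddr2 and Mmp2. The rest were named after their values were seen. Correlations were computed with SciPy 1.17.1, and figures with matplotlib 3.10.9. The fit was tested on simulated data. The 3 chains Col6a6, Col21a1 and Col28a1 and all proteins were not analysed here.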

Additional observations from a re-analysis of the deposited data

How the results depend on the processing

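The 16 alternatives were another variance model, 2 normalizations, 16 intensity units added before log2, a filter on dim probe sets, array weights, the letter as a block, each array left out, 2 other choices of probe set and type IV alone. No collagen chain was called in any of them, and 14 of 21 named chains and 16 of 23 named pathway genes kept their direction in all that gave a value. The count of probe sets called, 14 in the reported fit, was 0 without the intensity trend, 25 with array weights and 258 with the replicate letter as a block. It ran over 3 to 24 with each array left out. Deviations of same-letter arrays correlated at -0.007, 0.05 and 0.08, and those of different letters at -0.069 to 0.021. With 3 arrays per group these values cannot decide whether the letters pair the arrays. The block changed the call of Crtap alone among named genes, to an adjusted p of 0.0125, where its largest over all alternatives was 0.865. The adjusted p of Sp3 was 0.279 without the trend and 0.0665 without knockout a.

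Chains apart and lower numbered 1 as reported, 2 with median centring, 0 without dim probe sets and 1 to 4 with an array left out. Chains apart and higher numbered 6 as reported, 4 with median centring or without dim probe sets, 5 with probe sets of no shared-transcript suffix, 8 with quantile normalization and 6 to 10 with an array left out. Without dim probe sets 14 chains were higher. The median of the synthesis list ran over 0.05 to 0.16 with an array left out. Log2 differences that turned sign were those of Col1a1 (0.06 with quantile normalization, 0.02 with array weights), Serpinh1 (0.07 with quantile normalization), Col6a3 (-0.00), P4hb (-0.06) and Sparc (-0.04) with median centring, and Col4a4 (0.04) with 16 units added. Averaged over their probe sets, Serpinh1 was at 0.39, Lox at -0.49, Lair1 at 0.08 and Lamb1 at -0.09, and with probe sets of no shared-transcript suffix Lama3 at -0.78. With each array left out the ranges were -0.14 to 0.17 for Col1a1, -0.00 to 0.24 for Col1a2, -1.15 to 0.90 for Col4a3, -0.67 to 0.80 for Col4a4, -0.08 to 0.27 for Col15a1, -0.27 to 0.08 for Col18a1, -0.09 to 0.37 for Col6a3, -0.03 to 0.07 for P4hb, -0.05 to 0.04 for Serpinh1, -0.04 to 0.55 for Lox and -0.14 to 0.16 for Sparc. Their causes were not tested. Depth has no equivalent here, and signal limits the 20 chains below the median level.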
